A study of Ovis aries with 18 samples.

Results

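The genes described here are 10 glycolytic enzymes (HK1, HK2, GPI, PFKP, ALDOA, GAPDH, PGK1, ENO1, PKM and LDHA) in RNA sequencing of sheep blastocysts. They were chosen by name and not by a cutoff on their measured values, but with earlier results of these data known. Of the 10, 8 had a row in the count table of 20092 genes, and all 8 passed the filter on low counts (at least 15 counts in more than 3 pools) and were among the 16488 genes tested. GAPDH and PGK1, which act between aldolase and enolase, have no row in the table used here and were not analysed.

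Glycolysis is the cytosolic chain of enzymes that splits glucose into pyruvate. In its opening steps hexokinase, glucose-6-phosphate isomerase, phosphofructokinase and aldolase spend ATP to make triose phosphates, and in its closing steps enolase and pyruvate kinase yield ATP and pyruvate, which lactate dehydrogenase can turn into lactate. Mammalian embryos rely mainly on pyruvate and lactate in the early cleavage stages and take up more glucose as the blastocyst, with its inner cell mass and trophectoderm, forms.

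The study asked whether methionine fed to rams is followed by changes in the embryos they sire. Polypay rams were on average 88 days old at the start and ate a basal diet (control) or that diet topped with 1.5 g of rumen-protected methionine for 77 days, and they were bred to superovulated Polypay ewes after the feeding had ended. Blastocysts were flushed 8 days after the rams joined the ewes and were combined into 12 pools of 5 embryos by sire and dam. The control pools came from Ram410, Ram423 and Ram444, with 2 pools each, and the methionine pools from Ram424, with 4 pools, and from Ram498 and Ram511, with 1 pool each. The methionine group therefore holds 3 sires of which a single sire gave 4 of 6 pools. Embryos within a pool cannot be told apart, and in such bulk samples fewer cells of a type and less RNA per cell cannot be told apart either. Total RNA went through whole transcriptome amplification before sequencing. The counts summed to between 1173289 and 1554651 per control pool and between 1017847 and 2398589 per methionine pool.

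Of the 12 pools, 2 stood apart before any enzyme was considered. The control pool Embryo444_2 and the methionine pool Embryo511_1 had median Spearman correlations with the other pools of 0.582 and 0.600 over the genes tested, against 0.820 to 0.857 for the other 10 pools. The blastocyst label was checked with marker genes. The summed level of the trophectoderm markers (8 of 10 had a row) was 5269 to 14370 CPM (counts scaled to the size of the library) in the 10 pools and 232 and 213 CPM in Embryo444_2 and Embryo511_1, and KRT8, the leading keratin of that lineage, stood at 116 and 42.6 CPM there against 3893 to 11860 CPM. The summed epiblast markers (3 of 6) were 167 to 554 CPM in the 10 pools against 68.7 and 51.6 CPM, and the hypoblast markers (5 of 6) 419 to 961 CPM against 273 and 290 CPM. Of the hypoblast markers GATA6 was low (38.9 and 66.4 CPM against 249 to 801 CPM). PDGFRA was not (166 and 115 CPM against 96.4 to 155 CPM), nor was GATA4 (26.9 and 94.2 CPM against 18.2 to 44.3 CPM). Of the epiblast markers POU5F1 was low (14.2 and 39.7 CPM against 132.5 to 521 CPM). NANOG lay within the range of the 10 pools, and DPPA4 was above it in Embryo444_2 (44.6 CPM) and below it in Embryo511_1 (3.97 CPM). The summed blood cell markers (3 of 6) were 56.1 to 123 CPM against 142 and 265 CPM, which rests on PTPRC (40.2 to 76.5 CPM against 121 and 254 CPM), since CD74 was at 7.08 and 10.9 CPM there against a median of 15.8 CPM in the 10 pools. The uterine epithelium markers (3 of 5) summed to 54.3 to 97.0 CPM against 117 and 77.3 CPM. The main comparisons of the diets over pools are given below with all 12 pools and with the 10 that remain without these 2 pools, a choice made after their values were seen. The values over rams and the comparison of Ram424 with all other pools are given with 12 pools only.

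None of the 8 enzymes passed the test between sire diets. In edgeR's quasi-likelihood test with Benjamini-Hochberg adjustment over all genes (FDR under 0.05), 0 of 8 were called with 12 pools, where 0 of 16488 genes (0.0%) were called, and 0 of 8 with 10 pools, where 1 of 16161 genes (0.00619%) was called, MROH5 (log2 fold change -1.88, FDR = 0.0418). At an unadjusted p under 0.05, 0 of the 8 enzymes stood out with 12 pools against 7.92% of all genes. It was also 0 of 8 with the likelihood-ratio test (1454 of 16488 genes), DESeq2 (1430 of 16488) and limma-voom with quality weights (2148 of 16488). With 10 pools ALDOA was higher and PFKP lower at that level, 2 of 8, against 11.9% of all genes. The log2 fold change (methionine minus control) was above 0 for 5 enzymes (HK1, HK2, GPI, ALDOA and ENO1) and below 0 for 3 (PFKP, PKM and LDHA) in both sets of pools, and its median over the 8 was 0.34 with 12 pools and 0.32 with 10, against 0.01 and -0.03 over all genes tested. With the ram as the unit this median was near 0, at -0.038 with the pools summed per ram, where 3 of 8 enzymes were above 0, and at 0.081 with the ram as a random effect. In these fits Ram511 is represented by Embryo511_1 alone, and no such fit was run without the pools that stood apart. The levels of the diets overlapped for all 8 enzymes with 12 pools and with 10, whereas 0.352% of all genes with 12 pools and 1.77% with 10 had groups that did not overlap.

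**Figure D1:**
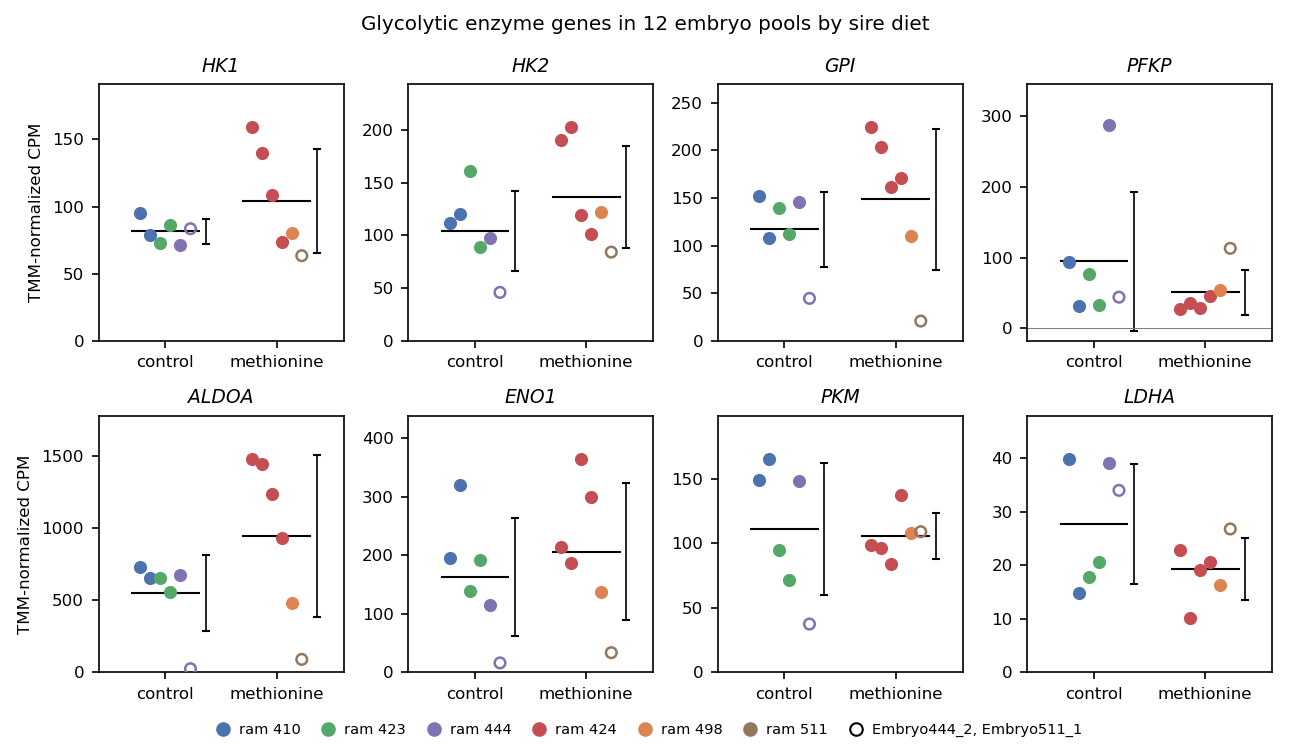
Levels of the 8 glycolytic enzyme genes in TMM-normalized CPM (linear axis) in each of 12 embryo pools, by sire diet. Each point is a pool coloured by its ram, open points are Embryo444_2 and Embryo511_1, horizontal lines are means and bars are ± SD over 6 pools per diet (for PFKP the control bar reaches below 0). The 4 pools of Ram424 lie above every other pool for ALDOA and GPI, and the diets overlap in every panel.

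Levels are CPM after TMM scaling (the trimmed mean of M-values in edgeR) and are not corrected for gene length, so they are compared between pools and not between genes. HK1 encodes the hexokinase found in most tissues, which traps glucose in the cell as glucose-6-phosphate. Its level ran from 71.7 to 95.6 CPM in control pools (median 81.1) and from 63.5 to 159 CPM in methionine pools (median 94.4). The control pools were tightly grouped, and 3 pools of Ram424 (109, 139.8 and 159 CPM) exceeded all of them, while the fourth pool of that ram (73.7 CPM) did not. The means were 81.5 ± 9.03 CPM and 104 ± 38.7 CPM (SD, n = 6 each), and the log2 fold change was 0.36 (SE 0.25, edgeR FDR = 0.739). It was 0.46 (SE 0.23, edgeR FDR = 0.442) with 10 pools.

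HK2, the insulin- and hypoxia-responsive hexokinase that binds mitochondria, ran from 46.0 to 161 CPM (median 104) in control pools and from 84.3 to 203 CPM (median 121) in methionine pools. The lowest pool of each diet was Embryo444_2 or Embryo511_1, and only Embryo424_1 (190.2 CPM) and Embryo424_2 (203 CPM) exceeded every control pool. HK2 had a log2 fold change of 0.39 (SE 0.31, edgeR FDR = 0.754) with 12 pools and 0.33 (SE 0.24, edgeR FDR = 0.602) with 10.

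GPI, which converts glucose-6-phosphate to fructose-6-phosphate, ran from 44.6 to 152 CPM in control pools (median 126) and from 20.8 to 224 CPM in methionine pools (median 166). Here the methionine pools divided by sire, with Ram424 at 162, 171, 203 and 224 CPM, Embryo498_1 at 110.2 CPM and Embryo511_1 at 20.8 CPM. GPI had a log2 fold change of 0.35 (SE 0.42, edgeR FDR = 0.846) with 12 pools and 0.39 (SE 0.22, edgeR FDR = 0.488) with 10. Over ram means of log2(CPM + 1) the difference had the other sign, -0.51 (exact two-sided permutation p = 0.8 over 20 assignments of 3 rams against 3, where 0.1 is the smallest p possible). Ram511 enters this difference through Embryo511_1 alone.

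PFKP encodes the platelet isoform of phosphofructokinase, which catalyses the committed step of glycolysis, and was the enzyme with the lowest log2 fold change. The control pools stood at 94.1, 31.2, 77.1, 32.7, 287 and 43.9 CPM (Embryo410_1, Embryo410_2, Embryo423_1, Embryo423_2, Embryo444_1 and Embryo444_2). The methionine pools stood at 26.8, 36.2, 28.2 and 45.7 CPM for Ram424, 53.6 CPM for Embryo498_1 and 113 CPM for Embryo511_1. Embryo444_1 was thus the highest of all pools, the remaining control pools spread over the range of Ram424 and beyond it, and Embryo511_1 was the highest methionine pool. The log2 fold change was -0.91 (SE 0.52, edgeR FDR = 0.678) with 12 pools and -1.46 (SE 0.49, edgeR unadjusted p = 0.00839, FDR = 0.289) with 10. The exact permutation test of log2(CPM + 1), which gives a single high pool less weight, gave p = 0.351 over all assignments of 12 pools and p = 0.135 over the 252 assignments of 10. Without Embryo444_1 as well, the log2 fold change was -0.63 (SE 0.35). Trophectoderm markers did not move together in these pools. Of the 10 pools Embryo444_1 had the lowest summed level of these markers (5269 CPM) and the lowest KRT8 (3893 CPM), Embryo511_1 had a sum of 213 CPM, and a single marker of the list, ELF5, was highest in Embryo444_1 (128 CPM) and next in Embryo511_1 (66.4 CPM). Their part in the PFKP values was not tested.

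ALDOA encodes aldolase A, which splits fructose-1,6-bisphosphate into triose phosphates, and had the highest log2 fold change of the 8. The control pools stood at 729.9 and 655 CPM for Ram410, 651 and 559.5 CPM for Ram423, 674 CPM for Embryo444_1 and 25.5 CPM for Embryo444_2. The methionine pools stood at 1481, 1446, 1234 and 932 CPM for Ram424, 482 CPM for Embryo498_1 and 90.2 CPM for Embryo511_1. Of the methionine pools, those of Ram424 were above every control pool, and those of the other rams were below all control pools but Embryo444_2. The means were 549 ± 262 CPM and 944 ± 560 CPM (SD, n = 6 each) with 12 pools, and 654 ± 61.5 CPM and 1115 ± 416 CPM (SD, n = 5 each) with 10. The log2 fold change was 0.78 (SE 0.68, edgeR FDR = 0.782) with 12 pools and 0.76 (SE 0.28, edgeR unadjusted p = 0.0152, FDR = 0.332) with 10. The exact permutation p was 0.452 over 12 pools and 0.0714 over 10, and over the 3 rams of each diet the difference of ram means was -0.01 on the log2 scale (exact permutation p = 1.0). Here too Ram511 is represented by Embryo511_1 alone.

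ENO1 encodes alpha-enolase, which forms phosphoenolpyruvate. It ran from 16.3 to 320.1 CPM (median 166) in control pools and from 33.7 to 365 CPM (median 200.5) in methionine pools. The lowest value of each diet was again Embryo444_2 or Embryo511_1, and the highest belonged to Embryo410_2 and Embryo424_3. ENO1 had a log2 fold change of 0.34 (SE 0.55, edgeR FDR = 0.89) with 12 pools and 0.31 (SE 0.30, edgeR FDR = 0.708) with 10.

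PKM encodes the muscle-type pyruvate kinase, which yields pyruvate and ATP. Its control pools, at 37.5 to 166 CPM (median 122), spread around its methionine pools, at 84.0 to 138 CPM (median 104). PKM had a log2 fold change of -0.07 (SE 0.31, edgeR FDR = 0.969) with 12 pools and -0.27 (SE 0.24, edgeR FDR = 0.687) with 10. LDHA encodes the lactate dehydrogenase subunit that favours the conversion of pyruvate to lactate. With 18 to 55 counts per pool it was the least counted of the 8, and it ran from 14.9 to 39.9 CPM (median 27.3) in control pools and from 10.2 to 26.8 CPM (median 19.9) in methionine pools. The control values fell into a higher set (39.9 CPM in Embryo410_1, with Embryo444_1 and Embryo444_2 next to it) and a lower set (14.9 to 20.5 CPM), and the methionine pools lay between 10.2 and 26.8 CPM, below the higher set. For LDHA it was -0.52 (SE 0.33, edgeR FDR = 0.711) with 12 pools and -0.57 (SE 0.34, edgeR FDR = 0.529) with 10.

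**Figure D2:**
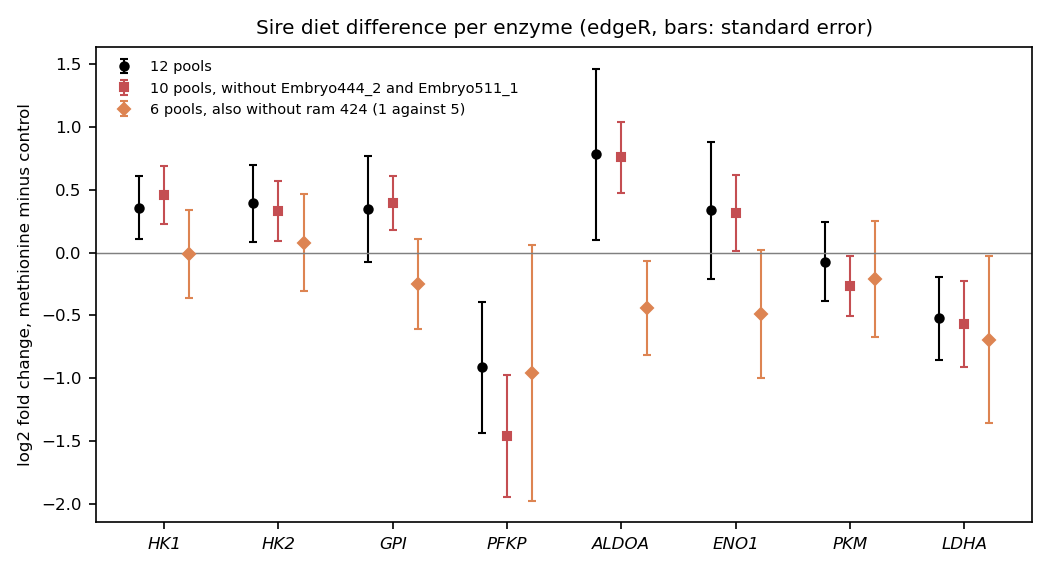
Log2 fold change (methionine minus control) of each of the 8 enzymes from edgeR, with bars of ± 1 SE, for 12 pools, for 10 pools without Embryo444_2 and Embryo511_1, and for 6 pools that also leave out Ram424 (1 methionine pool against 5 control pools). ALDOA lies at 0.78, 0.76 and -0.44 and ENO1 at 0.34, 0.31 and -0.49, whereas PFKP, PKM and LDHA are below 0 in all of them.

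The 2 pools that stood apart differed from the rest for some of these enzymes and not for others. HK2, GPI, ALDOA and ENO1 were lower in both pools than in each of the other 10, 4 of 8 enzymes, against 12.9% of all genes tested. This was not particular to the 8 enzymes. Genes of the other lists of glucose metabolism given below were also lower in both, among them PGAM1, LDHB, SLC2A1, TKT, TALDO1, CS, SDHA and SDHB. These examples were picked after their values were seen, and the share per list was not counted. Others were not lower in both, among them HK3, PFKM, ALDOC and ENO2, and BPGM was higher in both (131.7 and 118 CPM against at most 43.9 CPM). Of the 8 enzymes ALDOA showed the widest gap, with a median over the 10 pools that was 27.6-fold the level in Embryo444_2 and 7.78-fold that in Embryo511_1. For ENO1 these ratios were 11.9 and 5.76, for GPI 3.34 and 7.14, and for HK2 2.61 and 1.42. HK1, PFKP, PKM and LDHA were not below the rest in both pools. LDHA was above the median of the 10 pools in both, HK1 in Embryo444_2 (83.5 CPM) was at the median of the 10 (83.4 CPM), and PKM was low only in Embryo444_2.

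Embryo444_2 could be set against Embryo444_1, a pool of the same sire. The level in Embryo444_1 was 26.5 times that in Embryo444_2 for ALDOA, 7.10 times for ENO1, 6.55 times for PFKP, 3.95 times for PKM, 3.26 times for GPI and 2.11 times for HK2. For PFKP, Embryo444_1 was the highest of all pools (287 CPM), and Embryo444_2 (43.9 CPM) was near the median of the 10 pools (41.0 CPM). LDHA (1.15 times) and HK1 (0.858 times) were near to equal. These ratios rest on 36 ALDOA counts and 23 ENO1 counts in Embryo444_2. ALDOA made up 42.7% to 62.3% of the counts of the 8 enzymes in the 10 pools, but 7.69% in Embryo444_2 (95% Wilson interval 5.61% to 10.5%, 36 of 468 counts) and 16.7% in Embryo511_1 (13.78% to 20.02%, 91 of 546 counts). The summed trophectoderm markers were low in the same pools and the leukocyte gene PTPRC high, as given above, and their part in the enzyme levels was not tested.

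**Figure D3:**
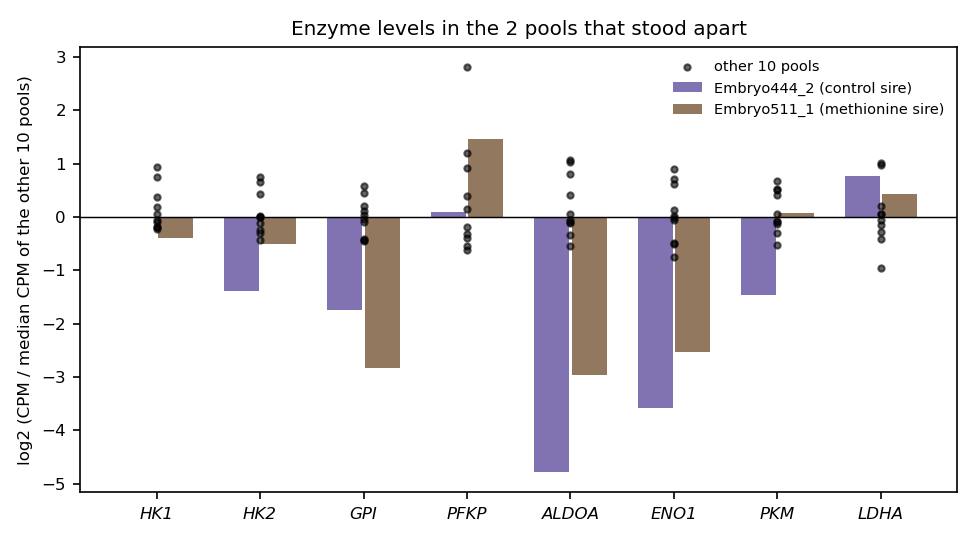
Log2 ratio of the CPM of each enzyme to its median over 10 pools, for Embryo444_2 and Embryo511_1 (bars, from 0) and for each of the other 10 pools (points). ALDOA, ENO1, GPI and HK2 bars lie below every point, whereas LDHA lies above 0 in both pools.

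The other pattern in the levels was by sire. All 4 pools of Ram424 exceeded all 8 other pools for ALDOA (932 to 1481 CPM against at most 729.9 CPM) and for GPI (162 to 224 CPM against at most 152 CPM), 2 of 8 enzymes, against 1.82% of all genes tested. The remaining 6 enzymes of Ram424 overlapped with the other pools, and PFKP (26.8 to 45.7 CPM) and LDHA (10.2 to 22.9 CPM) were in the lower part of their ranges. Since Ram424 gave 4 of the 6 methionine pools, its own level, the ewes it was bred to and the diet cannot be told apart in the comparison of pools. The labels used here do not name the dam of a pool. Without its pools all 8 log2 fold changes were below 0, with a median of -0.27, and ALDOA (-0.93), ENO1 (-0.92) and GPI (-0.82) had changed direction. Without Embryo444_2 and Embryo511_1 as well, a fit chosen after the values were seen that sets Embryo498_1 against 5 control pools, ALDOA was at -0.44, ENO1 at -0.49, GPI at -0.25, HK1 at -0.01 and HK2 at 0.08, with a median of -0.34 over the 8. In that fit the lone methionine pool is assumed to vary like the control pools.

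Pools Embryo424_1 and Embryo424_2 were closer to each other than other pools of 1 sire. Their chi-square per degree of freedom over genes was 3.31 and their Spearman correlation 0.955, against 8.45 to 26.9 and 0.585 to 0.895 for the other 8 same-sire pairs. They differed by more than counting noise. Amplified reads are not independent molecules, so this cannot show that the pools are independent. They were counted as 2 pools, as labelled. With their counts summed to 1 pool, again a choice made after the values were seen, the log2 fold changes were 0.61 for ALDOA, 0.22 for GPI and 0.23 for HK1.

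Several steps of glycolysis are shared by isoenzymes encoded by different genes, and the ratio of their reads within a pool does not depend on the scaling between pools. For 5 pairs the log2 ratio was compared between diets, with 0.5 added to each count. None differed by the exact two-sided permutation test over pools, with adjusted p = 0.682 for all 5 pairs with 12 pools and adjusted p from 0.446 to 0.722 with 10. The difference (methionine minus control, 12 pools and then 10) was 1.02 and 0.65 for ALDOA to ALDOC, the brain-type aldolase, and 0.53 and 0.62 for ENO1 to ENO2, the neuronal enolase. Without Embryo444_2 alone these differences were 0.030 and 0.022. It was 0.13 and -0.09 for HK2 to HK1, -0.30 and -0.88 for PFKP to PFKL, the liver phosphofructokinase, and -0.63 and -0.59 for LDHA to LDHB, the subunit typical of heart. The LDHB and LDHA subunits join in the same enzyme, and their reads reversed order between pools. The LDHA to LDHB ratio was 0.0345 to 0.246 in the 10 pools, so LDHB held most of the reads, and 2.77 in Embryo444_2 and 1.57 in Embryo511_1. LDHB itself was at 160 to 440.5 CPM in the 10 pools and at 12.0 and 16.9 CPM in these. The ALDOA to ALDOC ratio was 9.36 to 94.6 in the 10 pools and 0.483 and 3.45 in Embryo444_2 and Embryo511_1, and the ENO1 to ENO2 ratio, 2.54 to 12.8, fell below 1 in both (0.540 and 0.590).

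**Figure D4:**
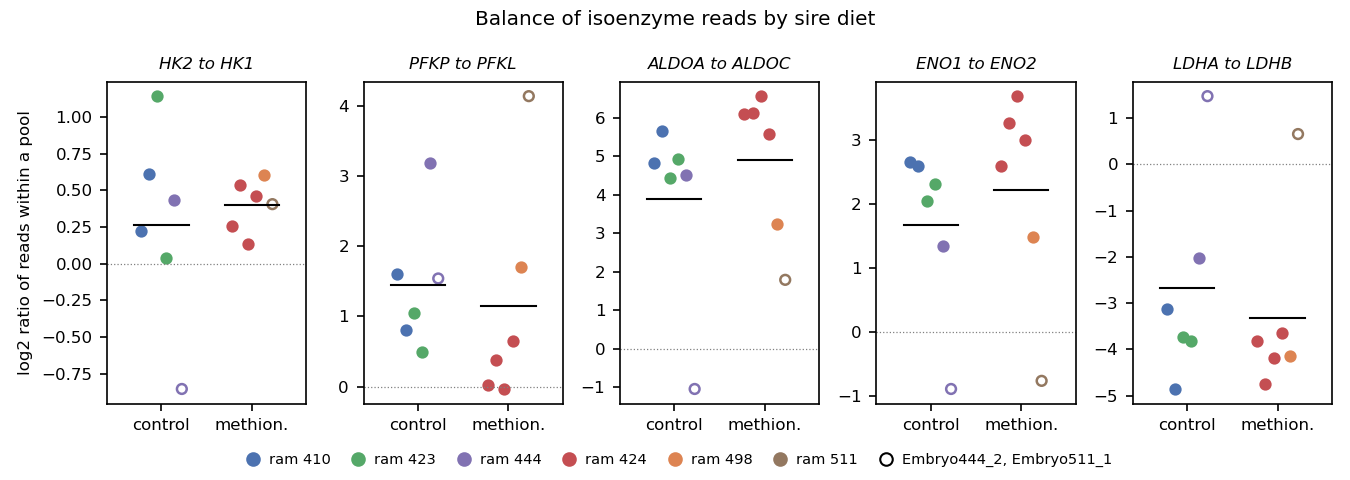
Log2 ratio of reads of 5 isoenzyme pairs within each of 12 pools (0.5 added to each count), by sire diet, with the mean as a line. Points are coloured by ram and open points are Embryo444_2 and Embryo511_1, which lie above 0 for LDHA to LDHB, where the other 10 pools lie below 0.

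Other genes of glucose metabolism were counted in the same way, to be read against the 7.92% of all genes with an unadjusted p under 0.05 with 12 pools and the 11.9% with 10. Of 14 tested genes for other isoenzymes and the steps not covered by the 8, 0 passed the adjusted test or an unadjusted p under 0.05 with either set of pools, and their median log2 fold change was -0.10 with 12 pools and -0.13 with 10. Of 16 genes for glucose and lactate carriers and regulators of flux, 0 stood out with 12 pools and 1 with 10, the glucose carrier SLC2A8 (-0.67, SE 0.30, edgeR unadjusted p = 0.0363, FDR = 0.389). Of 10 genes of gluconeogenesis and glycogen 0 stood out. Of 5 genes of the pentose phosphate pathway, which branches off after hexokinase, 0 stood out with 12 pools and 1 with 10, TKT (0.63, SE 0.27, edgeR unadjusted p = 0.0325, FDR = 0.384).

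The genes that take up the pyruvate made by glycolysis were counted last, and whether they differ from the 8 enzymes was not tested. Of 23 genes of pyruvate entry, the pyruvate dehydrogenase complex and the tricarboxylic acid (TCA) cycle, 0 passed the adjusted test in edgeR, while 3 were higher and 0 lower at an unadjusted p under 0.05 with 12 pools (7.92% of all genes in either direction) and 9 higher and 0 lower with 10 (11.9% of all genes). The median log2 fold change was 0.58 with 12 pools and 0.51 with 10. The 3 were DLAT (0.60, SE 0.24) and DLD (0.68, SE 0.30), which encode components of pyruvate dehydrogenase, and IDH3B (0.86, SE 0.30), a subunit of isocitrate dehydrogenase, with edgeR FDR = 0.587, 0.615 and 0.585. The IDH3B level was 7.79 to 35.0 CPM in control pools and 40.7 to 54.5 CPM in methionine pools, without overlap, as for 0.352% of all genes tested with 12 pools. With 10 pools these were joined by PDHB, SUCLG1, SDHA, SDHB, SDHC and MDH1, with log2 fold changes from 0.56 to 0.84. MDH1, PDHB, SDHB and SDHC were also higher in all 4 pools of Ram424 than in the other 8, as ALDOA and GPI were. These are 4 of 23 genes, against 1.82% of all genes tested. Of 8 trophectoderm markers tested, 1 had an unadjusted edgeR p under 0.05 with 12 pools (7.92% of all genes), KRT19 (-1.31, SE 0.44, FDR = 0.584). With 10 pools 3 of 8 did (11.9% of all genes), namely GATA2 (0.71, SE 0.24, FDR = 0.293), KRT19 (-1.64, SE 0.39, FDR = 0.237) and ELF5 (-1.06, SE 0.42, FDR = 0.351). GATA2 was also higher in all 4 pools of Ram424 than in the other 8, 1 of 8 markers, against 1.82% of all genes tested. The part of the markers in the enzyme differences was not tested.

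**Figure D5:**
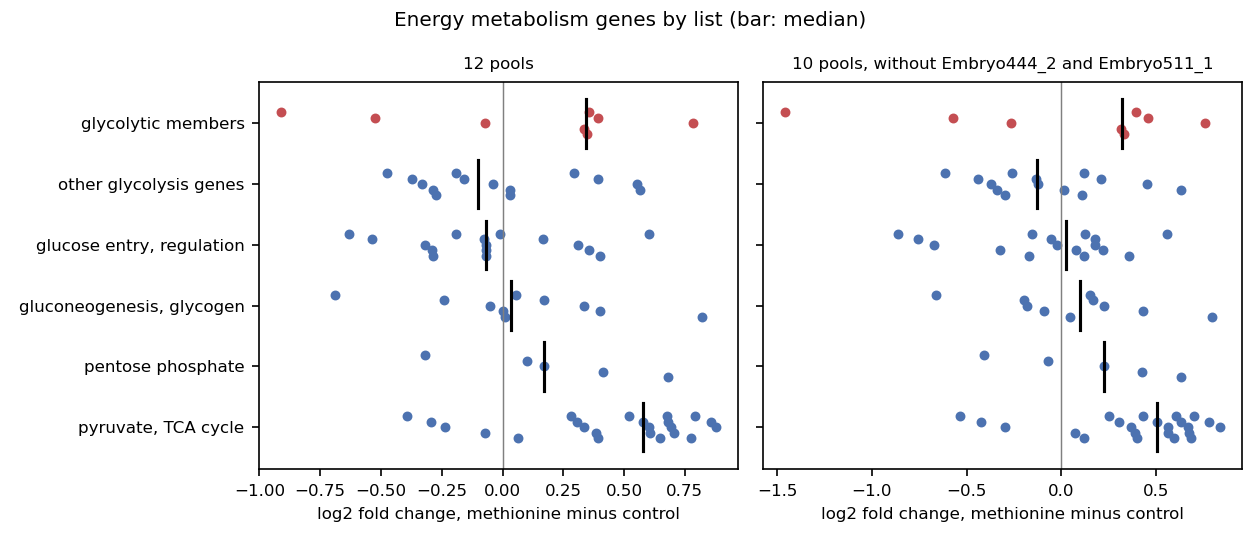
Log2 fold change (methionine minus control, edgeR) of each tested gene in 6 lists of glucose metabolism, with 12 pools and with 10, where each point is a gene and each bar the median of its list. The pyruvate and TCA cycle list has medians of 0.58 and 0.51, the 8 enzymes 0.34 and 0.32, and the other glycolysis genes -0.10 and -0.13.

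The enzymes did not move as 1 block across pools. As a description over 12 pools that share library preparation, the Pearson correlation of the log2 level of an enzyme with the mean of the other enzymes was 0.88 for ALDOA, 0.75 for GPI, 0.69 for ENO1, 0.65 for HK2 and 0.55 for PKM, but 0.24 for HK1, -0.15 for PFKP and -0.33 for LDHA. Over the 10 pools it was 0.79 for GPI and 0.70 for ALDOA, and from -0.26 to 0.43 for the others. The genes outside the list whose levels were most like the mean of the 8 were PMM1, ECI2, GATA6, ALYREF and RCOR2 with 12 pools (Pearson coefficients of 0.94 to 0.95), and PMM1 (0.94) and ECI2 (0.96) were among the first 5 with 10 pools as well. Since the SD of log2 levels depends on the level, each enzyme was ranked among the 1000 genes nearest to it in level. Over the 12 pools this SD put PFKP at percentile 95.9, ALDOA and ENO1 both at 95.4 and HK1, the steadiest of the 8, at 32.8. Over the 10 pools PFKP was at percentile 99.1, ALDOA at 85.9 and GPI at 47.6.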

How the data were processed

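RNA of 12 pools of 5 blastocysts was analysed, grouped by the sire diet in the labels. The authors trimmed reads with Trimmomatic, aligned them to Oar_rambouillet_v1.0 with STAR and deposited its raw counts per gene. STAR counts uniquely mapped reads only, so reads shared with near-identical gene copies are lost. The strand setting is not given in the sources used here, so reads from a gene and an antisense partner cannot be told apart. Whole transcriptome amplification without molecular identifiers means that reads are not independent molecules, and intervals cover counting error only.

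Only genes that reached 15 counts in more than 3 pools were kept, normalized by TMM and tested with edgeR 4.0.16 (quasi-likelihood, R 4.3.3) without covariates, at FDR under 0.05. The SE of a fold change was its size divided by the root of the F statistic. The biological coefficient of variation was 0.450. Pools of a ram share a sire (correlation of 0.263 in limma 3.58.1), so p-values over pools may be too small, and exact permutation tests of log2(CPM + 1) were also run over ram means. Alternatives were the likelihood-ratio test, DESeq2 1.42.0, limma-voom with quality weights or the ram as a random effect, RLE and total count scaling, other filters and pseudocounts, counts summed per ram, and each pool and ram left out. Fits without Embryo444_2 and Embryo511_1, alone or with Embryo444_1 or Ram424, and the sum of Embryo424_1 and Embryo424_2 were chosen after the values were seen. Remaining steps used Python 3.11.15, with scipy 1.17.1 for intervals and matplotlib 3.10.9 for plots, beside pandas 2.3.3 and numpy 2.4.6. The tests were themselves tested on simulated data.

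The 10 enzymes and the other gene lists were chosen with earlier results of these data known. Named beyond the enzymes were their isoenzymes, listed genes with an unadjusted p under 0.05, tissue markers and the 5 genes most alike. MROH5, the genes high in Ram424, and PGAM1, SLC2A1, TALDO1, CS and BPGM were named after their values were seen. The sperm methylation counts were not used here, since no annotation of that build was used, and no sequences or coordinates are given for the same reason.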

Additional observations from a re-analysis of the deposited data

Results flagged for a closer look

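Levels and isoenzyme ratios were searched within each diet for a pool far from the other 5, by the gap to its nearest neighbour as a share of the whole range (Dixon's 95% criterion). Of 26 groups of 6 pools, 6 met it. Chance gives about 1 in 20 for independent groups of normally distributed values. Levels and ratios here share genes and pools, so the count cannot be judged against that rate.

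PFKP had such a pool in both diets, with Embryo444_1 at 287 CPM among control pools and Embryo511_1 at 113 CPM among methionine pools. ALDOA in control pools was far lower in Embryo444_2, at 25.5 CPM. Embryo444_2 was also far from the other control pools in the log2 ratio of ALDOA to ALDOC (-1.05) and of ENO1 to ENO2 (-0.89), and Embryo511_1 was far from the other methionine pools in the log2 ratio of LDHA to LDHB (0.65). Of the 6, 5 belong to Embryo444_2 or Embryo511_1, the pools with the lowest correlations to all others.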

How the results depend on the processing

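No enzyme passed FDR under 0.05 in any of 31 alternative fits. Over all genes the count of calls, 0 in the fit of 12 pools, was 5 with the likelihood-ratio test, 16 with DESeq2, 2 with quality weights, 1 without Embryo444_2 and Embryo511_1, 1 without Embryo444_1 as well, and 2 without Ram424 and both of these pools. The median log2 fold change of the enzymes ranged from -0.27 to 0.48 when a pool or ram was left out, the lowest being without Ram424, and was -0.34 without Ram424, Embryo444_2 and Embryo511_1. That last fit reversed HK1 (-0.014), GPI (-0.25), ALDOA (-0.44) and ENO1 (-0.49). Counts summed per ram reversed GPI (-0.069) and ENO1 (-0.16), and the ram as a random effect GPI (-0.16) and PKM (0.080), and the cause was not tested. The difference in mean log2(CPM + 1) of PKM was -0.018 with total count scaling and -0.21 without Embryo444_2 and Embryo511_1, and that of the log2 ratio of HK2 to HK1 -0.092 without those pools.

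When each pool or ram was left out in turn, log2 fold changes ranged from -0.93 to 1.02 for ALDOA, -0.92 to 0.83 for ENO1, -0.82 to 0.57 for GPI, -0.18 to 0.46 for HK1, -0.0051 to 0.56 for HK2 and -0.25 to 0.26 for PKM. The values without Ram424 were the lowest for ALDOA, ENO1, GPI, HK1 and HK2, and that without Ram410 the highest for PKM, which also turned above 0 without Embryo410_1, Embryo410_2 or Embryo444_1. PFKP (-1.31 to -0.15) and LDHA (-0.72 to -0.27) stayed below 0. Differences of levels over pools ranged from -0.12 to 0.63 for GPI, -0.13 to 0.89 for ENO1 and -0.20 to 0.22 for PKM, and log2 ratios from -0.091 to 0.31 for HK2 to HK1, 0.030 to 1.64 for ALDOA to ALDOC, 0.022 to 1.13 for ENO1 to ENO2, -0.90 to 0.048 for PFKP to PFKL and -1.43 to 0.20 for LDHA to LDHB, the last 2 and HK2 to HK1 changing sign without Embryo444_2 or, for PFKP to PFKL, without Embryo444_1.

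No paired analysis was possible because the pool numbers in the labels count pools within a ram and link no control pool to a methionine pool. LDHA was not tested with a filter of at least 50 counts in 6 pools, and the alternatives for sperm methylation were not run. With 3 rams against 3 the smallest possible p is 0.1, and LDHA levels rest on few counts.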
